A study of Mus musculus with 2 samples.

Results

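Messenger RNAs of splicing factors and heterogeneous nuclear ribonucleoproteins (hnRNPs) were followed along the cell cycle in single cells. The genes were those whose symbol starts with Srsf, Hnrnp, Snrp, Sf3a, Sf3b or U2af, leaving out Snrpn, and 47 of the 10666 genes in the expression table met this rule. They comprised 8 SR proteins, 19 hnRNPs, 10 Snrp genes for Sm and other small nuclear ribonucleoprotein (snRNP) proteins, 7 subunits of SF3A and SF3B, and 3 genes of the U2AF family. The rule itself uses no measured value. Srsf2, Srsf6, Srsf9, Hnrnpa0, Snrpd2, Sf3b4 and Sf3b5 were not analysed here.

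Splicing of a pre-mRNA is carried out by the spliceosome, which is built from snRNPs on each intron anew. U2AF recognises the end of the intron, SF3A and SF3B hold the U2 snRNP on the branch point, and the Sm proteins form a ring on the small nuclear RNAs. SR proteins mostly promote the use of exons they bind, and hnRNPs coat nascent transcripts and often repress exons. Many genes of the SR and hnRNP families adjust their own mRNA through alternatively spliced forms that are degraded by nonsense-mediated decay.

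The cells came from 2 replicate cultures of neurospheres, which are floating aggregates of neural progenitors, taken from wild-type C57BL/6 mouse embryos (dorsal telencephalon, day 14.5) and grown with 10 ng/ml EGF and 10 ng/ml bFGF. Both cultures had the same genotype and treatment, so there was 1 group of n = 2 and no comparison between conditions, and no test was made over the 2 cultures. Culture 1 held 5748 cells with a median of 19477 unique molecular identifiers (UMIs) per cell, and culture 2 held 7057 cells with a median of 14637. The labels do not say whether the cultures came from separate embryos, and 48 cell barcodes occurred in both. Of 10 listed radial glia and neural progenitor markers 7 were in the table, and their summed normalized value averaged 138.6 in culture 1 and 135.4 in culture 2. Fabp7 alone had means of 91.9 and 90.7, while Pax6 was detected in 21.1% and 23.1% of cells. Of 10 neuron and neuroblast markers 5 were in the table, and they summed to 2.03 and 1.92. Of 7 oligodendrocyte lineage markers 5 were in the table, and they summed to 6.16 and 6.23. Among these, Olig2 was detected in 97.3% and 91.9% of cells. Of 4 astroglia markers 2 were in the table, and they summed to 1.07 and 0.87. None of the listed markers of intermediate progenitors, microglia, endothelium, pericytes or red blood cells had a row.

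Each cell carries a deposited cell-cycle position, an angle from 0 to 2π. The stage that Seurat gives each cell from its own gene lists showed what the angles stand for. In culture 1, S phase was called in 93.3% of the cells from 0.25π to 0.5π and in 99.2% of those from 0.5π to 0.75π. G2M was called in 98.4% of the cells from 1π to 1.25π, and G1 in 99.9% of those from 1.75π to 2π. In culture 2 the same shares were 93.9%, 99.0%, 99.1% and 99.3%. The classes from 1.25π to 1.75π were thin, with 85 and 64 cells in culture 1 and 279 and 189 in culture 2. From 1.25π to 1.5π most cells were called G2M (91.8% and 95.3% in the respective cultures), while from 1.5π to 1.75π the calls were mixed, with G1 in 73.4% and 47.6%. Both classes also had the lowest depth, with a median of 14111 UMIs in culture 1 and 11882 in culture 2 from 1.25π to 1.5π. Levels below are the authors' depth-normalized values. A curve was fitted to log2(value + 1) in each culture with 2 harmonics of the position. R2 is the share of the variation between cells that the curve takes up, and the amplitude is the maximum minus the minimum of the curve on the log2(value + 1) scale, which understates the change of weakly detected genes.

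About as many of these genes followed the cycle in both cultures as did not, and those that did were mostly lowest in G1 and highest from S phase to the end of G2M. R2 reached 0.02 in both cultures for 24 of the 47 genes, or 51.1%, against 8.34% of all genes in the table. Of these 24, 23 had their lowest class mean from 1.75π to 2π in culture 1 and 21 in culture 2. The same was not counted over all genes, so a low level in G1 is not shown to be particular to these genes. The genes of splicing were detected in more cells than most, with medians of 92.4% and 84.4% in the respective cultures against 23.1% and 17.2% over all genes, so that counts are also given among genes of like detection. Among genes detected in at least 50% of the cells of each culture, 22 of 38 splicing factors passed, against 17% of all such genes. Among genes detected in at least 90% of the cells, 13 of 20 passed, against 22%. At R2 of at least 0.01 the count was 36, against 14.9% of all genes and 33.9% of those detected in at least 50% of the cells, and at 0.05 it was 12, against 4.01% and 6.19%. The median amplitude over all 47 genes was 0.49 in culture 1 and 0.40 in culture 2, or 0.45 as the median of the culture means, beside 0.09 over all genes and 0.25 over genes detected in at least 50% of the cells. A mean of the linear values in each eighth of the cycle gave a median ratio of the highest to the lowest class of 1.55 in culture 1 and 1.40 in culture 2, against 1.35 and 1.29 over the genes detected in at least 50% of the cells. Over all genes the same ratios were 1.78 and 1.66, with many sparsely detected genes among them. Without the thin classes from 1.25π to 1.75π the ratios of the 47 genes were 1.43 and 1.34. Genes detected in at least 50% of the cells then had 1.26 and 1.23, and all genes 1.49 in each culture. These are changes relative to the other mRNAs of a cell, since the values are scaled to each cell's total. The deposited position could rest in part on some of the 47 genes. A position rebuilt from 90 Seurat genes, none of them among the 47, left all 24 past the threshold, and with total UMIs in the fit 25 passed, the 24 among them.

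The families gave different counts. SR proteins passed in 6 of 8 cases, Snrp genes in 6 of 10, and hnRNPs in 10 of 19. Sf3b1 passed among the 7 SF3A and SF3B genes, and U2af1 among the 3 U2AF genes. The differences between families were not tested. The families also differed in median detection in cultures 1 and 2. It was 88.9% and 79.4% for SR proteins, 92.5% and 82.3% for hnRNPs, and 97.0% and 95.7% for Snrp genes. For SF3A and SF3B it was 65.0% and 55.1%, and for U2AF 81.6% and 73.0%. The families were not compared at like detection. The plot of R2 by gene shows the spread between the cultures beside these counts.

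**Figure D1:**
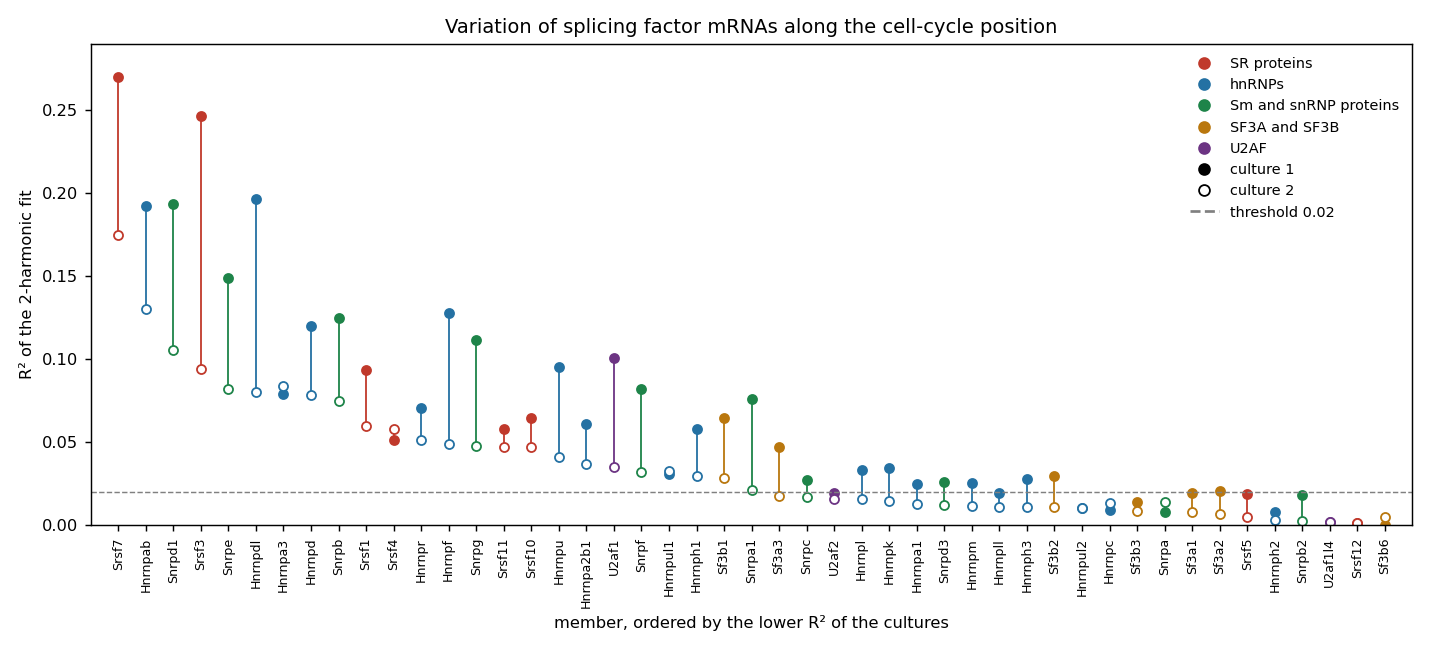
R2 of the fit along the cell-cycle position for each of the 47 genes, with culture 1 as filled and culture 2 as open circles, coloured by family and ordered by the lower of both values, with a dashed line at the threshold of 0.02. Srsf7 has the largest values (0.270 and 0.175), 24 genes have both circles above the line, and most filled circles lie above the open ones.

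Other large complexes gave a range of values. Of 35 proteasome subunits 1 passed, of 45 translation initiation factors 1 passed, and of 19 nucleoporins 8 passed. The median amplitudes of these sets were 0.20, 0.19 and 0.17. Their median detection in cultures 1 and 2 was 95.3% and 88.6%, 86.5% and 76.1%, and 22.7% and 13.9%. Of 136 other spliceosome genes in the table, from a list of 148, 37 or 27.2% passed, with a median amplitude of 0.24. The genes of that list had a median detection of 61.2% and 49.1%, under the 92.4% and 84.4% of the 47 genes. These sets were not compared with the 47 genes at like detection. Lsm2, part of the ring of Lsm proteins on the U6 small nuclear RNA, led that list with R2 of 0.401 in culture 1 and 0.315 in culture 2 and an amplitude of 1.43 ± 0.03 (SD, n = 2). Lsm3 followed it, with an amplitude of 1.06 in culture 1 and 0.94 in culture 2, then Lsm8 and Lsm5 with 1.09 ± 0.03 and 1.08 ± 0.07, and then Tra2b, an SR-like splicing activator, with 0.74 ± 0.01. For scale, Top2a, a topoisomerase of dividing cells, had R2 of 0.666 and 0.655 and an amplitude of 3.08 ± 0.13. The paper ranks Top2a highest by weight in the principal components behind the position, so these values are partly built in. The largest amplitude among the 47 genes, 1.05, lay near that of Lsm3 and well under that of Top2a.

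The largest amplitude belonged to an SR protein. Srsf7 (ENSMUSG00000024097), which binds exons and also takes part in mRNA export, had mean values in culture 1 of 3.78, 5.20, 6.01, 6.23, 5.62, 4.60, 3.65 and 2.79 over the 8 successive eighths of the cycle. In culture 2 the same means were 4.03, 5.42, 6.27, 5.91, 5.58, 4.80, 3.84 and 3.03. Both cultures climbed through S phase, turned down before mitosis and were lowest in G1. The amplitude was 1.05 ± 0.04 (SD, n = 2), with the maximum at 0.77π and 0.58π, and Srsf7 ranked 157 of all genes by the lower R2.

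Srsf3, a small SR protein also used in mRNA export and in the processing of other SR transcripts, kept rising for longer. Its class means in culture 1 were 7.83, 9.30, 10.6, 11.7, 13.2, 11.8, 9.60 and 6.96. In culture 2 they were 7.88, 9.18, 10.2, 10.6, 11.6, 11.2, 9.40 and 7.58. Both cultures were highest from 1π to 1.25π, where nearly every cell was called G2M. The amplitude was 0.94 in culture 1 and 0.68 in culture 2. It also had the highest mean value of its family, 9.72 and 8.95.

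The other 4 SR genes that passed split between those times. Srsf1, the founding member of the family, peaked at 1.16π and 1.05π with an amplitude of 0.63 ± 0.03 (SD, n = 2), and Srsf11 at 1.01π and 1.10π with 0.51 ± 0.04. Srsf4 peaked at 0.94π and 0.76π with 0.50 ± 0.06, and Srsf10, which can act as a general repressor when dephosphorylated, at 0.91π and 0.84π with 0.54 ± 0.01. Srsf4 was detected in 55.5% and 49.3% of cells, and its linear class means spanned 0.570 to 1.07 and 0.627 to 1.31 in the respective cultures, a ratio of 1.88 and 2.08 that the log2(value + 1) scale compresses. Srsf5 and Srsf12 did not pass, and Srsf12 was detected in 1.69% and 1.25% of cells.

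Among the hnRNPs, Hnrnpab, a shuttling protein that binds AU-rich and other sequences, had the largest lower R2, with 0.192 and 0.130. Its class means rose from 5.51 in the last eighth to 9.19 from 1π to 1.25π in culture 1, and from 5.89 to 9.51 in culture 2, there from 0.75π to 1π. Hnrnpdl, a relative of Hnrnpd with a transcript that feeds back on itself, had the largest amplitude of the family, 0.93 in culture 1 and 0.71 in culture 2. Its highest class mean was 5.72 and its lowest 2.74 in culture 1, against 4.74 and 2.92 in culture 2. Hnrnpd, the AU-rich element binding protein AUF1, turned earlier, with maxima at 0.93π and 0.82π and highest class means of 3.48 and 3.60 from 0.75π to 1π. In both cultures the 3 genes were lowest from 1.75π to 2π.

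Other hnRNPs had late fitted maxima. Hnrnpa3, which packages transcripts together with its paralogues, had class means in culture 1 of 16.6, 17.4, 18.3, 18.8, 21.3, 23.4, 22.1 and 16.6. In culture 2 they were 15.01, 15.2, 15.6, 17.1, 20.7, 21.0, 20.8 and 15.6. The level was nearly flat through S phase, stepped up from 1π and fell back at the return to G1, in both cultures. Hnrnpa3 had the highest mean value of the hnRNPs, 18.3 and 16.8, and the smallest difference between the cultures in amplitude, 0.680 against 0.679. Hnrnpa2b1 and Hnrnpu, a large nuclear matrix protein, had fitted maxima at 1.38π and 1.39π and at 1.38π and 1.36π, with amplitudes of 0.60 ± 0.13 and 0.58 ± 0.16 (SD, n = 2). In culture 2 Hnrnpu was as high in S phase as later, with class means of 7.49 from 0.5π to 0.75π and 7.50 from 1.25π to 1.5π, and 6.71 and 7.22 between them. Hnrnpr peaked between the early and late genes, at 1.16π and 1.19π, with an amplitude of 0.51 ± 0.01. Hnrnpul1 and Hnrnph1 also passed, with amplitudes of 0.34 ± 0.02 and 0.56 ± 0.14. The 9 hnRNPs that did not pass, Hnrnpa1, Hnrnpc and Hnrnpk among them, had amplitudes of 0.19 to 0.45 as means of the cultures.

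Hnrnpf, which binds runs of G, was the gene among the 24 whose maxima lay far apart in the cultures, with maxima of 0.69π and 1.46π in the single cultures. Its class means in culture 1 were 9.96, 10.2, 9.47, 10.9 and 10.2 from 0.5π to 1.75π, and in culture 2 they were 8.61, 8.17, 7.95, 8.84 and 8.79. The level stood high before and after a dip from 1π to 1.25π, and the fitted curve picked a different side in each culture.

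**Figure D2:**
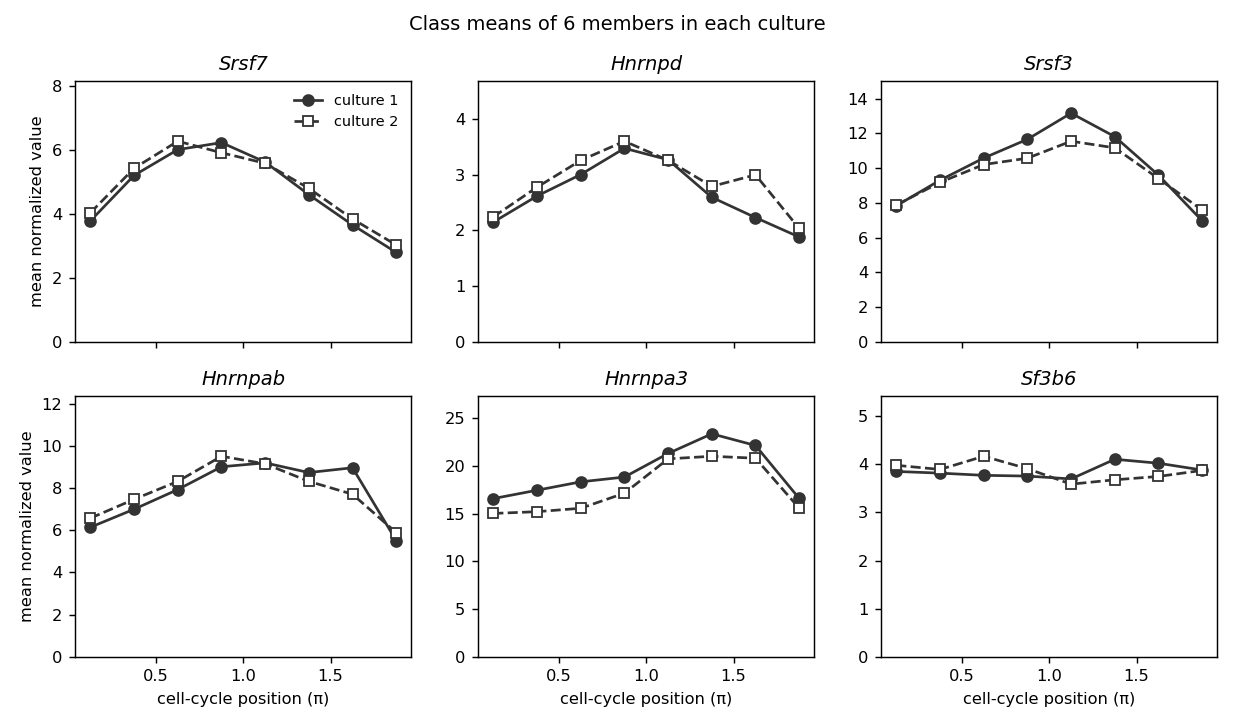
Mean normalized value in the 8 classes of cell-cycle position, plotted at the class centres, for Srsf7, Hnrnpd, Srsf3, Hnrnpab, Hnrnpa3 and Sf3b6, with culture 1 as filled circles on solid lines and culture 2 as open squares on dashed lines. Srsf7 tops out at 6.23 and 6.27 before 1π, Hnrnpa3 at 23.4 and 21.0 after 1.25π, and Sf3b6 stays between 3.59 and 4.17.

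The Snrp genes that passed were the Sm ring components Snrpd1, Snrpe, Snrpb, Snrpg and Snrpf and, outside the ring, Snrpa1, a U2 snRNP protein. Snrpd1 had class means in culture 1 of 5.04, 6.05, 6.76, 7.80, 7.44, 7.07, 6.79 and 4.18. In culture 2 they were 4.98, 6.25, 7.08, 7.33, 7.13, 6.75, 6.42 and 4.68. It was highest from 0.75π to 1π in both, with an amplitude of 0.77 ± 0.11 (SD, n = 2). The fitted maxima of Snrpd1 were at 0.98π and 0.73π, and those of Snrpe, Snrpb, Snrpg and Snrpf from 1.09π to 1.34π in the single cultures, with amplitudes of 0.54 ± 0.08, 0.59 ± 0.07, 0.40 ± 0.15 and 0.46 ± 0.15. Snrpg had the highest mean value of its family, 13.1 and 13.4. Its place in this order was not stable, since its highest class in culture 2 was also that from 0.75π to 1π, with 14.95, and with total UMIs in the fit its maximum there was at 0.72π. Snrpd3, a further ring gene, missed the threshold with R2 of 0.026 and 0.012.

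SF3A, SF3B and U2AF genes had the fewest genes past the threshold, and these families also had the lowest median detection. Sf3b1, the scaffold of SF3B, had an amplitude of 0.46 ± 0.09 (SD, n = 2) with maxima at 1.16π in both cultures. Sf3b2, with the highest mean value of its family, 4.75 and 4.27, had R2 of 0.029 and 0.011. U2af1, the small subunit that reads the AG at the end of the intron, peaked in S phase, at 0.71π and 0.62π, with an amplitude of 0.53 ± 0.06. Its class means from 0.5π to 0.75π were 6.78 and 6.47, and those from 1π to 1.25π were 6.04 and 5.54. Its partner U2af2 had R2 of 0.019 and 0.016.

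The genes nearest the threshold differed little from each other. Hnrnph1, Sf3b1 and Snrpa1 lay just inside, with lower R2 of 0.030, 0.029 and 0.021, and Sf3a3, Snrpc and U2af2 just outside, with 0.018, 0.017 and 0.016. Among genes detected in at least 50% of the cells of each culture, ranked by the larger of the R2 of both cultures, U2af1l4, Sf3b6, Hnrnpc, Sf3b3 and Snrpa came lowest. Sf3b6, the subunit that touches the branch point adenosine, had R2 of at most 0.005 although 97.3% and 91.2% of cells held it, and its class means spanned 3.69 to 4.10 and 3.59 to 4.17 in the respective cultures. U2af1l4 had R2 of 0.002 in both cultures, and its span overlaps Gm49396 on the same strand, so that reads could be shared. Hnrnpc had R2 of 0.009 and 0.013, Sf3b3 0.014 and 0.008, and Snrpa 0.008 and 0.014.

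**Figure D3:**
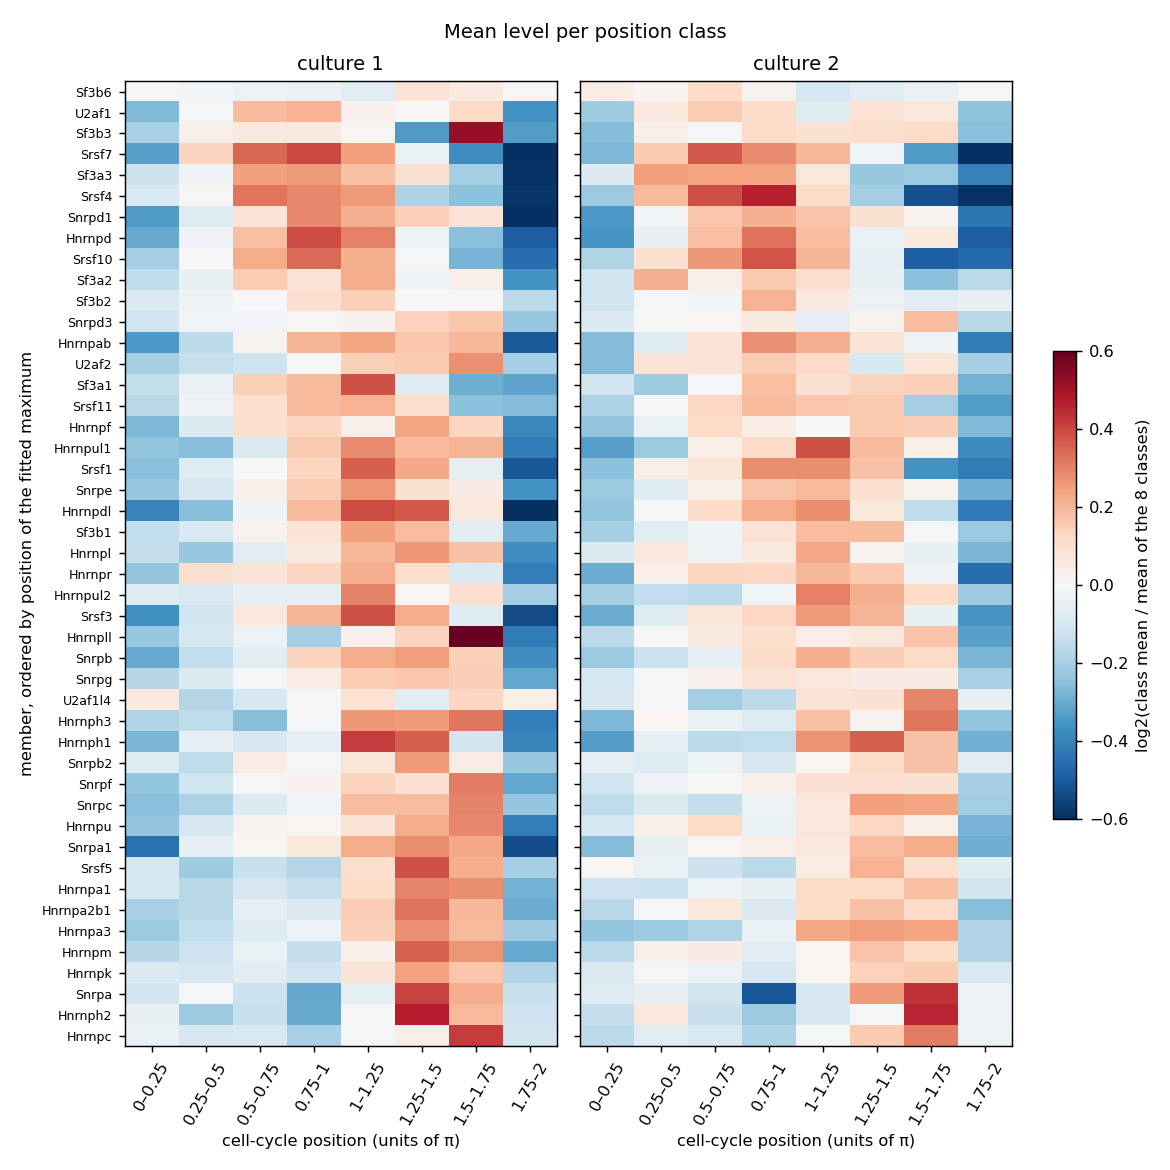
Mean level of 46 genes in 8 classes of cell-cycle position in each culture, as log2 of the class mean over the mean of the 8 classes, with colours ending at 0.6 in either direction, and genes in the order of their fitted maximum. Srsf12 is left out because it had class means of 0. The column from 1.75π to 2π is blue for most genes, and the red moves from the classes before 1π in the upper rows to those after 1.25π in the lower rows. The columns from 1.25π to 1.75π rest on 64 to 279 cells.

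The 24 maxima had a median position of 1.125π, the earliest at 0.67π and the latest at 1.385π. The cultures placed them a median of 0.075π apart, against 0.05π over all 890 genes that passed. Among passing genes detected in at least 50% of the cells, the median gap was 0.065π. For 23 of the 24 genes the maxima of the cultures lay within 0.25π of each other, the other being Hnrnpf. That count was not made over all genes. By the mean position of both cultures, 2 genes (Srsf7 and U2af1) peaked near 0.5π, 15 near π, 7 near 1.5π and 0 near 0. Hnrnpf counts near π by that mean alone, with neither culture's maximum there. Of all 890 genes that passed, 18.5% peaked near 0.5π, 62.4% near π, 10.3% near 1.5π and 8.76% near 0. The late maxima depended on the curve. A periodic loess line put 22 maxima near π and 0 near 1.5π, with Hnrnpa3 at 1.19π and 1.31π. The class means of Hnrnpa3 are free of any curve and were highest from 1.25π to 1.5π in both cultures, there over 85 and 279 cells.

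The linear class means also divided the genes into earlier and later genes. From 0.5π to 0.75π, 8 genes had a higher mean than from 1π to 1.25π in both cultures, namely Srsf12, U2af1, Srsf7, Hnrnpf, Sf3a3, Srsf4, Sf3b6 and Srsf10. Over all genes this held for 44.1%. The reverse order held for 34 of the 47 genes in both cultures, against 27.2% of all genes. Deposited stage calls, which rest on gene lists of other methods, showed the rise as well. By Seurat, 43 of the 47 genes had a higher mean log2(value + 1) in G2M than in G1 cells in both cultures, against 38.9% of all genes, and 2 (Srsf12 and Sf3b6) had a lower one in both, against 39.9%. Linear means were higher in G2M for 43 genes, against 33.3% of all genes and 33.4% of those detected in at least 50% of the cells. By cyclone, linear means were higher in G2M than in G1 for 42 of 47 genes in both cultures, against 31.4% of all genes. Between Seurat S and G2M cells, Srsf7 had means of 5.90 and 5.63 in culture 1 and 5.89 and 5.31 in culture 2, while Srsf3 had 10.5 and 12.8, and 9.88 and 11.2. Hnrnpa3 had 18.1 and 20.9, and 15.7 and 20.5.

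Summed within each cell, the SR family had the largest amplitude. The amplitude of the sum was 0.71 ± 0.11 for SR proteins, 0.55 ± 0.08 for hnRNPs, 0.49 ± 0.10 for Snrp genes, 0.28 ± 0.07 for SF3A and SF3B, and 0.44 in each culture for U2AF (SD, n = 2). The SR sum peaked at 1.14π and 1.18π, the hnRNP sum at 1.35π and 1.39π, and the U2AF sum at 0.76π and 0.64π. The SF3A and SF3B sum had its maximum at 1.12π in culture 1 but at 0.85π in culture 2. With the position from Seurat genes the maximum of the SR sum in culture 2 was at 0.99π. The SR sum had R2 of 0.366 and 0.230, above the 0.270 and 0.175 of Srsf7. Snrp genes peaked at 1.26π and 1.36π. The late maxima of single genes depended on the curve, and the sums were not refitted with loess or 1 harmonic. A sum is weighted towards its most abundant genes, and Hnrnpa3 alone supplied 18.3 of the mean summed 99.3 of the hnRNPs in culture 1.

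**Figure D4:**
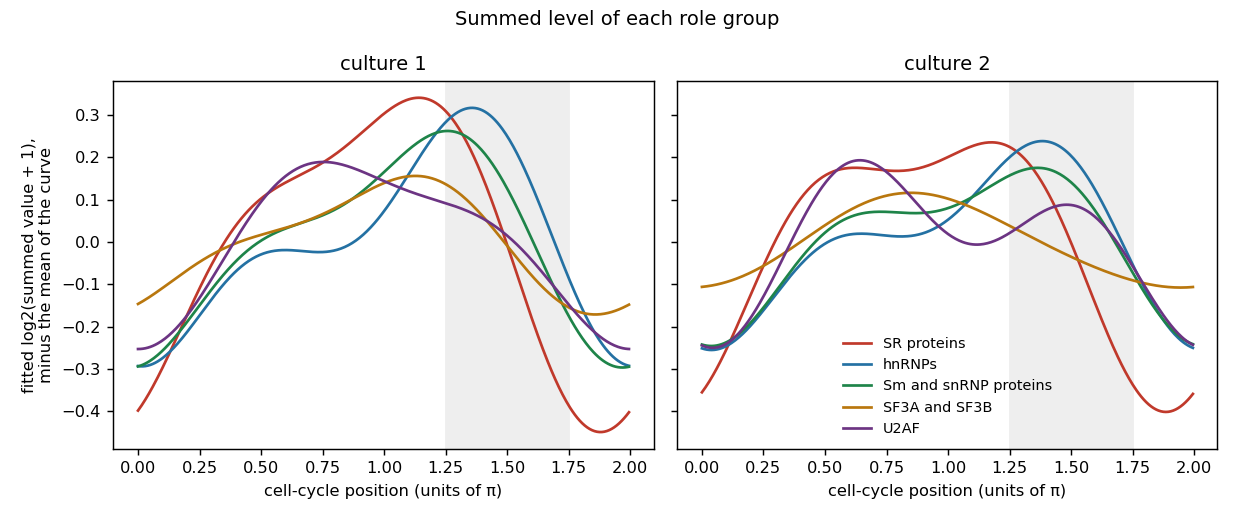
Fitted curves of log2(summed value + 1) for the 5 families along the cell-cycle position, each with its own mean subtracted, in culture 1 (left) and culture 2 (right), with the thinly filled stretch from 1.25π to 1.75π shaded. SR proteins swing the most (0.79 and 0.64) and SF3A and SF3B the least (0.33 and 0.22), and the hnRNP curve is highest inside the shaded stretch.

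The promoters of the genes that followed the cycle were read for motifs of promoter-binding factors. The E2F motif GGCGGGAA, on either strand, is shown because all 5 genes that held it were among the 24 that passed, a choice made after the matches were seen. The lines give the 250 bases before each start site on the gene's own strand, 5′ to 3′, from RefSeq on GRCm38.p6, with the motif or its reverse complement in capitals. Srsf1 is from chr11:88047123-88047372 (+), Srsf4 from chr4:131873387-131873636 (+), Srsf10 from chr4:135855821-135856070 (+), Hnrnpa2b1 from chr6:51469846-51470095 (-) and Hnrnpul1 from chr7:25754760-25755009 (-).
Srsf1: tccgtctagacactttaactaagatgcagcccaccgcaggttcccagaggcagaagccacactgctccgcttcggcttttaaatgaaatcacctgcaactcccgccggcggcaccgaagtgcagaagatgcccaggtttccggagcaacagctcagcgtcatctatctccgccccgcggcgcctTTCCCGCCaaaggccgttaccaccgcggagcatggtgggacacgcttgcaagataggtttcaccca
Srsf4: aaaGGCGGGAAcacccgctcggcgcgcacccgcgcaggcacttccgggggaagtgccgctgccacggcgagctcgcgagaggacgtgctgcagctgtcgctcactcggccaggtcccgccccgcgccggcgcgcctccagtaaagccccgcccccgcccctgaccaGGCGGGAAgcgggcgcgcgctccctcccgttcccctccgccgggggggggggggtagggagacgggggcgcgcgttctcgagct
Srsf10: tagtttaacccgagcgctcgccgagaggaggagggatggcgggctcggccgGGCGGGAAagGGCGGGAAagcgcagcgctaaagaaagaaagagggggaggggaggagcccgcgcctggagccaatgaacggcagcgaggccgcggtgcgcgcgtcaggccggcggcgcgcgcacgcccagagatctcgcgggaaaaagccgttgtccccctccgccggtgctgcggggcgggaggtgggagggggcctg
Hnrnpa2b1: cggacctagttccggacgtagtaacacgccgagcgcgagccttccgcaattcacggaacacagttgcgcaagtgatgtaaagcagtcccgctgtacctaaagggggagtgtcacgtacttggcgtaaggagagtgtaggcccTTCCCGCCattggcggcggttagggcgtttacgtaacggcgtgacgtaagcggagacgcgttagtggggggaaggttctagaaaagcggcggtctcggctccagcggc
Hnrnpul1: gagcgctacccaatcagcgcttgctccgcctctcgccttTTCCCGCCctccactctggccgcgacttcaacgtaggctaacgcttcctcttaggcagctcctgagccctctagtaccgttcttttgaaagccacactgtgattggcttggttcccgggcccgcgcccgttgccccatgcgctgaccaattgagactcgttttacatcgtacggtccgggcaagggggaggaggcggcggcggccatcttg

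Of the 47 genes, 38 had a RefSeq window of 250 bases before to 50 after the start, and 5 of these (13.2%) held GGCGGGAA, against 4.61% of 7570 windows of all genes. It was in 5 of 22 windows (22.7%) of genes that passed and in 0 of 16 others, the split for which this motif was chosen. Over all genes past the same threshold, 10.6% of 705 windows held it. Windows were found for 80.9% of the 47 genes, 71.0% of all genes and 79.2% of all genes past the threshold. The shares are incomplete in every set, so that comparing the sets, here and below, decides nothing. In Srsf4 and Srsf10 the letters occurred 2 times. Srsf7 and Srsf3, with the widest swings of the SR family, were not among the holders. CCAAT stood in 19 of the 38 windows (50%) against 38.9% of all. Of the 22 windows of genes that passed, 54.5% held it, against 51.8% of all past the threshold. CCGGAAGT, letters bound by ETS factors, stood in 8 (21.1%) against 9.59%, and in 18.2% of the 22 against 10.6%. TTTGAA, the core of the cell cycle homology region, stood in 4 (10.5%) against 10.8%, and in 13.6% of the 22 against 21.3%. The NRF1 motif was in 0 windows, against 2.48% of all and 2.70% of those past the threshold. Both strands were searched, and matches of different motifs may overlap. A match describes letters, not binding.

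Transcript annotation was a further feature that the choice of genes did not use. In GENCODE vM21, 24 of the 47 genes (51.1%) had a transcript marked for nonsense-mediated decay, against 30.4% of all genes, and 37 (78.7%) had one with a retained intron, against 61.0%. Among the SR proteins 6 of 8 had a decay transcript. Of genes detected in at least 50% of the cells, 28.8% had one. Of the 24 genes that passed, 15 had one, with no share over all genes past the threshold to set beside it. The values sum all spliced forms of a gene, so that productive and decaying forms cannot be told apart in them.

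The cultures are the replicates here, and their differences set the error of the values above. Amplitudes in the 2 cultures had a Pearson r of 0.888 across the 47 genes, given as a description because the genes share both libraries. The amplitude was larger in culture 1 for 38 of the 47 genes, against 63.1% of all genes, and the deeper library was culture 1. Mean log2(value + 1) was higher in culture 1 for 44 of the 47 genes, against 76.1% of all genes. It was also higher for 44 in cells of 10000 to 20000 UMIs, where no share of all genes is given. Medians in those cells were still unlike, at 15917 UMIs in culture 1 and 14331 in culture 2. The class from 1.75π to 2π, where most of the 47 genes were lowest, held 1789 of 5748 cells in culture 1 and 3149 of 7057 in culture 2. The means were not matched for position, so level and mix of positions cannot be told apart. The largest differences were 0.34 for Hnrnpa2b1, with 3.28 against 2.94, then 0.32 for Hnrnpl, 0.32 for Hnrnpk, 0.30 for Hnrnph2 and 0.27 for Srsf11. A limit on such differences lies in the values, whose smallest step differs by gene and by culture. Over 2322 genes detected in 3% to 15% of cells, the step of a gene differed between the cultures by over 1.25-fold in 24.8% and by over 1.5-fold in 9.04%. A constant factor of this kind shifts the level of a gene between cultures but not the ratio between position classes within one.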

How the data were processed

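Single-cell RNA-seq (10x Chromium 3′ chemistry) of 2 cultures of mouse neurospheres was used. The authors quantified spliced and unspliced reads with Alevin (Salmon 1.3.0) on the GRCm38 build with annotation from GENCODE, kept spliced counts and dropped outlying cells. The deposited expression values are a linear signal that the authors scaled by each cell's depth. Total UMIs are deposited estimated counts summed per cell. The cell-cycle position and the stage calls of Seurat, cyclone and a further method are other deposited values. By the methods, the authors integrated both cultures (Seurat 3.2.2) and took the position as the polar angle in the leading principal components of variable genes annotated to the cell cycle. The kit is version 2 per the labels and another version per the methods. All per-sample columns were assigned to a culture.

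Values were taken as log2(value + 1) and fitted by least squares on 2 harmonics of the position in each culture (Python 3.11.15, numpy 2.4.6, pandas 2.3.3), and curves were read at 400 positions. A gene passed at R2 of at least 0.02 in both cultures. The fit was tested on simulated data. A maximum near 0, 0.5π, π or 1.5π lies within 0.25π of it, by the circular mean of the cultures. Values in 8 classes of 0.25π were averaged on the linear scale. Cells are not replicates, and over 2 cultures no test was made. Whole counts could not be recovered from the steps of the values, so no count model, no thinning and no counting interval was used. Doublets were not called again. Gene symbols came from GENCODE vM21 for 10662 of 10666 genes.

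Genes named in the text were the 20 with the largest lower R2, the highest mean in each family, the 5 with the smallest R2, taking the larger of both cultures, among genes detected in at least 50% of cells, the 5 with the largest culture difference, the 3 on either side of the threshold, 5 other spliceosome genes and Top2a. Others named beyond these were chosen after their values were seen. The genes and lists were chosen with earlier results of these data known. Alternatives were a pseudocount of 0.1, total UMIs in the fit, a detection filter, a position rebuilt from 90 Seurat genes, 1 harmonic, other thresholds, a periodic loess line (R 4.3.3), fewer classes and leaving out either culture. Reads shared between a gene and its processed copies were assigned by Alevin and were not examined.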

Additional observations from a re-analysis of the deposited data

How the results depend on the processing

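The number of genes past the threshold stayed between 23 and 25 with a pseudocount of 0.1, total UMIs in the fit, a detection filter, the position from Seurat genes and 1 harmonic. It was 36 at R2 of at least 0.01 and 12 at R2 of at least 0.05. Snrpa1 dropped out with the pseudocount of 0.1 and with 1 harmonic. The position from 90 Seurat genes, which hold none of the 47, had a circular correlation with the deposited one of 0.933 in culture 1 and 0.908 in culture 2. Chosen after seeing the data, leaving out the sparse class after 1π to 1.25π or the 5% of cells with the most UMIs also kept all 24. The median amplitude was 0.74 with a pseudocount of 0.1, 0.35 with 1 harmonic and 0.33 with loess. With 1 harmonic, 23 maxima lay near π, and the cause was not tested. The U2AF sum had an amplitude of 0.54 with a pseudocount of 0.1 and 0.42 with the position from Seurat genes. With 4 classes the ratio of classes was 1.37, against 1.37 over all genes and 1.21 over those detected in at least 50% of the cells.

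With 1 culture alone, the count ran from 24 to 34, the median amplitude from 0.40 to 0.49, maxima near π from 12 to 21, and the ratio of classes from 1.40 to 1.55. The sums ran from 0.64 to 0.79 for SR proteins, 0.49 to 0.61 for hnRNPs, 0.42 to 0.56 for Snrp genes, 0.22 to 0.33 for SF3A and SF3B and 0.442 to 0.443 for U2AF. The count of 34 came from culture 1, the deeper library. No paired analysis was possible because the labels give 1 group, so that no groups share replicate numbers, and the contrasts between stages or classes were taken within each culture, with no test.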
